A study of Mus musculus with 6 samples.

Results

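The 9 ion channel genes described here, 6 potassium channels and 3 channels of the TRP (transient receptor potential) family, are known from microglia and were followed across 6 bulk RNA sequencing libraries of sorted microglia, the resident macrophages of the brain. They are Kcnk13, Kcnk12, Kcnk6, Kcnj2, Kcna3 and Kcnn4, and Trpm2, Trpv2 and Trpm7. They were taken from a fixed list of 9 symbols, each matched to 1 Ensembl identifier among the 49585 genes counted, and all 9 passed the filter that left 11041 genes for testing. The libraries came from male mice aged 3 months, 3 wild type (WT) and 3 carrying the label IRF8KO, a knockout of the transcription factor gene Irf8. The labels name no allele, strain or treatment. Microglia of each brain were isolated without enzymes and sorted by FACS into TRIzol. Gene counts per library ran from 3658917 to 11098363. Values are given as CPM, a gene's count scaled to the library's total and by TMM, which discounts transcripts with extreme changes.

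Potassium channels set the resting membrane potential of microglia and carry the potassium efflux that precedes activation of the NLRP3 inflammasome, the complex that matures interleukin-1β. Two-pore channels leak potassium at rest, inward rectifiers hold the potential near the potassium equilibrium, and voltage- or calcium-gated channels open when the cell is depolarised or its calcium rises. The TRP channels described here pass calcium and other cations, and respond to ADP-ribose made under oxidative stress (TRPM2), to heat and membrane stimuli (TRPV2) or to intracellular magnesium (TRPM7).

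Irf8 itself had 793, 849 and 1400 CPM in WT and 741, 648 and 848 CPM in IRF8KO, and was not called (log2 fold change −0.44, SE 0.33; adjusted p = 0.368, by edgeR's quasi-likelihood test with Benjamini-Hochberg adjustment). Counts summed over a gene cannot separate intact from defective transcripts. Directions below therefore rest on the labels. WT replicate 3 stood apart from WT replicates 1 and 2 for several of the channels, and the values of each library are given for that reason.

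Of the 9 channels, 4 were called at an adjusted p under 0.05 in the fit over all genes, where 19.1% of all tested genes were called. Kcnn4 rose, against 9.64% of all genes called higher, and Kcnk6, Kcnk12 and Trpm7 fell, against 9.46% called lower. The same 4 were the channels whose WT and IRF8KO values did not overlap, which held for 37.9% of all tested genes. The other 5 were not called, 5 of the 9 had an unadjusted p under 0.05, as had 3717 of all 11041 tested genes, and 8 of the 9 log2 fold changes lay below 0. Their median was −1.17, beside −0.11 for all tested genes. Scaling by library size alone moved the median of all genes to −0.61 and the share of called genes that were higher from 50.5% to 25.4%.

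**Figure D1:**
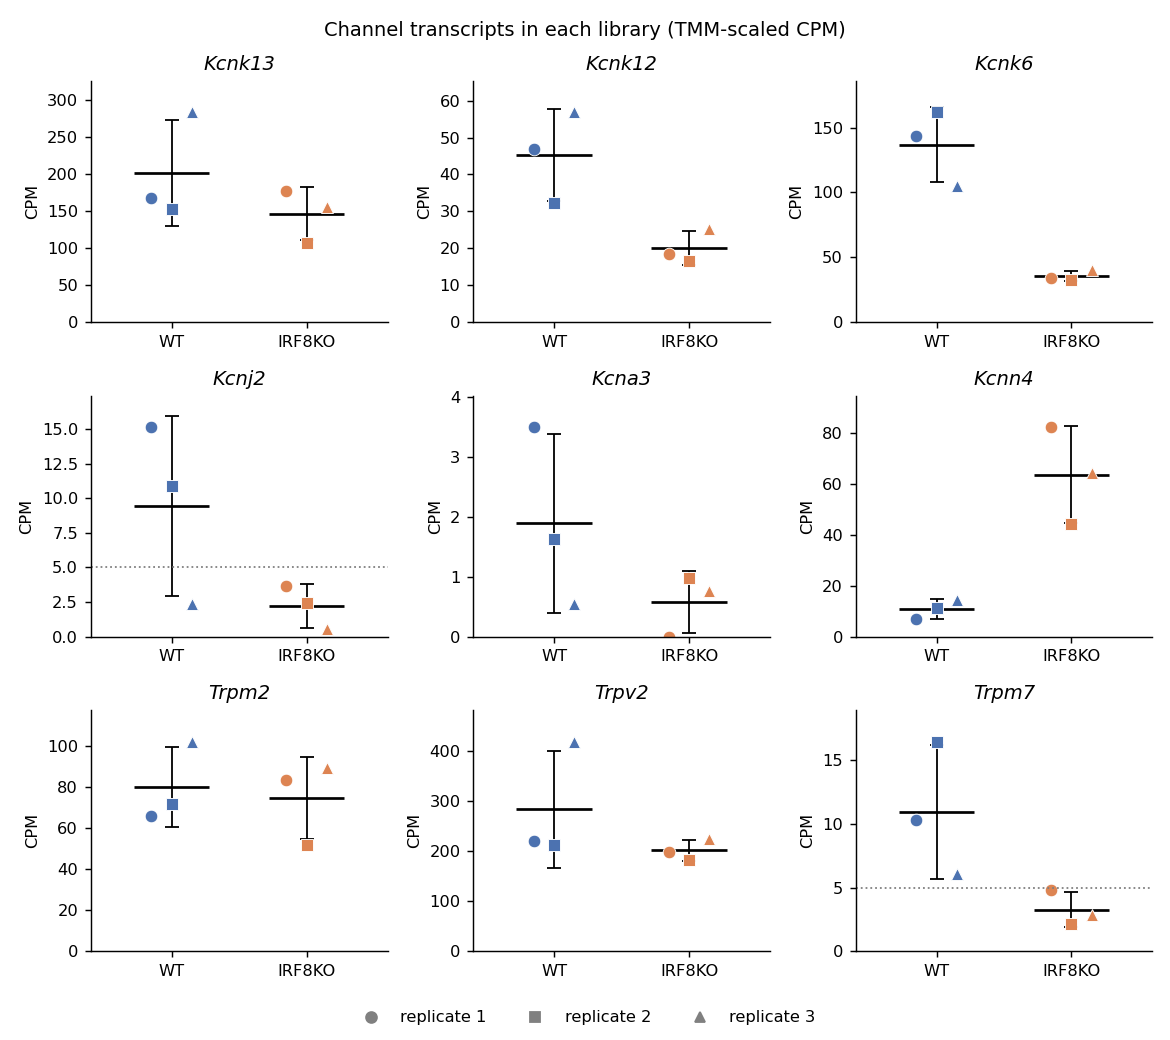
TMM-scaled CPM of the 9 channel transcripts in each library, WT in blue and IRF8KO in orange, with a symbol for each replicate; black lines are group means, bars are SD (n = 3), each vertical axis starts at 0, and the dotted line marks 5 CPM. Kcnk6, Kcnk12 and Trpm7 lie lower in every IRF8KO library than in any WT library, Kcnn4 lies higher in every one, and the other 5 overlap.

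The motifs bound by IRF8 and its partners were looked for in the promoter windows that RefSeq gives on GRCm38.p6, 250 bases before to 50 bases after a transcript start. Windows were matched for 8 of the 9 channels, 10 windows in all; Kcnk6 had none. The interferon-stimulated response element (GAAA, any 2 bases, GAAA) and the ETS-IRF composite element (GGAA, any 2 bases, GAAA), searched on both strands, were in none of the 10 windows, beside 3.44% and 2.72% of all 32851 windows. The PU.1 box GAGGAAGT, the site of the macrophage factor that partners with IRF8, was in 2 overlapping windows of Trpv2 and in 3.2% of all windows. Its letters share GGAA with the composite element. Their presence or absence in a window is a description and shows no binding. The 250 bases before the start are printed for Trpv2, which carries a match and was not called, and for Kcnk12, which fell and carries none. They are 5′ to 3′ on the gene's strand, with the motif match in capitals, from chr11:62574236-62574485 (plus strand) and chr17:87797995-87798244 (minus strand).
Trpv2: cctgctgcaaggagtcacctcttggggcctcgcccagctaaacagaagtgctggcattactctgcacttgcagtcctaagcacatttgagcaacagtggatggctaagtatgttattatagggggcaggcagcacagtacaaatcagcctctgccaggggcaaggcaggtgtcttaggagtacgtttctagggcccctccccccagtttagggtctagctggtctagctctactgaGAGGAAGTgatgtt
Kcnk12: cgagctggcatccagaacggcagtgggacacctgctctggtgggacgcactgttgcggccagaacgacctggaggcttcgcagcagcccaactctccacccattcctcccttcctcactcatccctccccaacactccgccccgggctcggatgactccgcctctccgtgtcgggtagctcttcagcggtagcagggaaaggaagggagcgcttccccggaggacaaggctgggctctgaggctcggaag
The capitals in Trpv2 start 14 bases before the transcript start. The Kcnk12 stretch has a GC content of 64.8% and the Trpv2 stretch one of 53.2%.

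Of the two-pore channels, Kcnk6 and Kcnk12 were called lower and Kcnk13 was not; the differences between them were not tested. Kcnk13 (ENSMUSG00000045404, chromosome 12, 99964499 to 100062682) encodes THIK-1, the main leak channel of microglia in the healthy brain. It had 168, 153 and 283 CPM in WT replicates 1, 2 and 3 and 177, 107 and 155 CPM in IRF8KO replicates 1, 2 and 3. The groups overlapped, with IRF8KO replicate 1 above WT replicates 1 and 2. The means were 201 ± 71.1 and 146 ± 35.5 CPM (SD, n = 3), and Kcnk13 was not called (log2 fold change −0.46, SE 0.32; edgeR, adjusted p = 0.348). Leaving out WT replicate 3 gave −0.11 (edgeR, adjusted p = 0.712). An offset for GC content and length gave −0.63 and a call (edgeR, adjusted p = 0.032). Library size alone gave −0.94 and also a call (edgeR, adjusted p = 0.0059), which is −0.33 relative to that scaling's median over all genes.

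Kcnk12 (ENSMUSG00000050138, chromosome 17, 87745801 to 87797994) encodes THIK-2, a close relative of THIK-1 that carries little current on its own and can assemble with it. It had 46.8, 32.2 and 56.8 CPM in the WT libraries and 18.4, 16.6 and 25.2 CPM in the IRF8KO libraries. Every IRF8KO library lay below every WT library, and the means of 45.3 ± 12.4 and 20.1 ± 4.55 CPM (SD, n = 3) differed 2.26-fold. Kcnk12 fell with a log2 fold change of −1.17 (SE 0.33; edgeR, adjusted p = 0.026). The call did not survive the loss of a library from either group in 4 of 6 cases. Without WT replicate 1 or without IRF8KO replicate 1, 2 or 3 the adjusted p was 0.070, 0.108, 0.079 and 0.063 (edgeR), at log2 fold changes between −1.36 and −1.04. The offset for GC content and length gave −1.996 (edgeR, adjusted p = 0.0017). As bulk libraries were measured, fewer cells with a transcript and less of it per cell cannot be told apart, here or for any gene below.

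Kcnk6 (ENSMUSG00000046410, chromosome 7, 29221926 to 29232515) encodes TWIK-2, a potassium efflux channel of macrophages linked to NLRP3 activation. It had 143, 162 and 105 CPM in WT replicates 1 to 3 and 33.9, 32.7 and 40.4 CPM in IRF8KO replicates 1 to 3. The IRF8KO libraries lay close together and far below the lowest WT library. Kcnk6 fell 3.84-fold on average, from 137 ± 28.8 to 35.7 ± 4.12 CPM (SD, n = 3), with a log2 fold change of −1.94 (SE 0.28; edgeR, adjusted p = 7.6e-04). It was called in all 18 alternative fits, at log2 fold changes from −2.49 to −1.81.

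Ratios of raw counts within a library need no scaling between libraries. The ratio of Kcnk12 to Kcnk13 counts was 0.279, 0.210 and 0.201 in WT and 0.104, 0.154 and 0.162 in IRF8KO, without overlap. The ratio of Kcnk6 to Kcnk13 was 0.855, 1.06 and 0.372 in WT and 0.192, 0.304 and 0.260 in IRF8KO, also without overlap, with WT replicate 3 nearest to the IRF8KO libraries. These ratios were not tested, and they do not say which channel of a pair moved.

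**Figure D2:**
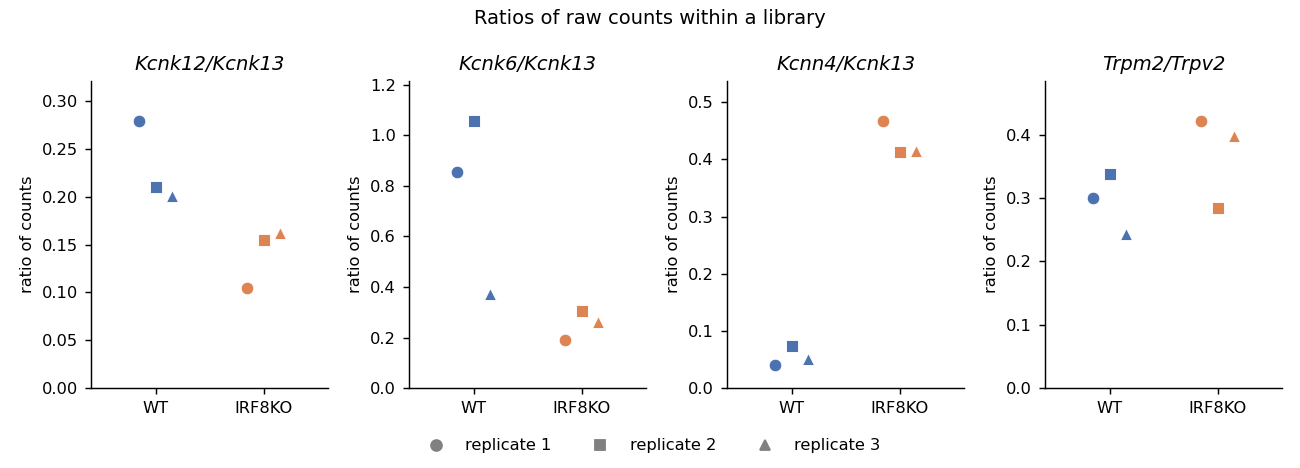
Ratio of raw counts of one channel to another in each library (vertical axes start at 0, symbols mark the replicate), WT in blue and IRF8KO in orange. Kcnk12/Kcnk13 and Kcnk6/Kcnk13 are lower and Kcnn4/Kcnk13 is higher in every IRF8KO library than in any WT library, while Trpm2/Trpv2 overlaps.

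The inward rectifier and the voltage-gated channel were scarce. Kcnj2 (ENSMUSG00000041695, chromosome 11, 111066164 to 111076821) encodes Kir2.1, the inward rectifier of microglia. Its counts were 78, 154 and 17 in WT and 23, 27 and 5 in IRF8KO, or 15.1, 10.9 and 2.34 CPM and 3.68, 2.42 and 0.541 CPM. WT replicates 1 and 2 stood above all other libraries, and WT replicate 3 lay below IRF8KO replicates 1 and 2. Kcnj2 was below 5 CPM in 4 libraries, namely WT replicate 3 and the 3 of IRF8KO. It was not called (log2 fold change −2.10, SE 0.79; edgeR, adjusted p = 0.082). It was called without WT replicate 3 (edgeR, adjusted p = 0.015), and the offset for GC content and length left −0.94 (edgeR, adjusted p = 0.351).

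Kcna3 (ENSMUSG00000047959, chromosome 3, 107036169 to 107038070) encodes Kv1.3, a voltage-gated channel of activated microglia and lymphocytes. It was the only channel of the 9 below 5 CPM in all 6 libraries, with 18, 23 and 4 counts in WT and 0, 11 and 7 in IRF8KO. In CPM this was 3.49, 1.62 and 0.550 in WT and 0, 0.985 and 0.757 in IRF8KO. IRF8KO replicate 1 lies under a floor of 3 counts, or 0.480 CPM, and the exact 95% interval of its 0 reaches 0.591 CPM. The same intervals, which cover counting error only, spanned 2.07 to 5.52 CPM in WT replicate 1 and 0.304 to 1.56 CPM in IRF8KO replicate 3. The groups overlapped, and at this depth no difference was detectable (log2 fold change −1.59, SE 1.08; edgeR, adjusted p = 0.331). Without WT replicate 1 the log2 fold change was −0.88.

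Kcnn4 was the channel that rose. It encodes KCa3.1 (ENSMUSG00000054342, chromosome 7, 24370263 to 24386690), a calcium-activated potassium channel of activated microglia, macrophages, lymphocytes and red blood cells. Kcnn4 had 6.79, 11.2 and 14.6 CPM in WT replicates 1 to 3 and 82.5, 44.4 and 64.3 CPM in IRF8KO replicates 1 to 3. The lowest IRF8KO library lay well above the highest WT library. The means were 10.8 ± 3.90 and 63.7 ± 19.0 CPM (SD, n = 3), a 5.88-fold increase, with a log2 fold change of 2.54 (SE 0.37; edgeR, adjusted p = 7.0e-04). It was called in all 18 alternative fits, at log2 fold changes from 2.05 to 2.81. Counts of Kcnn4 were 0.0405, 0.0729 and 0.0515 times those of Kcnk13 in WT and 0.467, 0.414 and 0.414 times in IRF8KO. Set against Kcnk6, they were 0.0474, 0.0690 and 0.139 times in WT and 2.43, 1.36 and 1.59 times in IRF8KO, so that Kcnn4 passed Kcnk6 in counts in all 3 IRF8KO libraries.

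Markers of cells that are known to carry Kcnn4 were measured beside it. Of the 6 red blood cell markers, 5 were tested and none was called in edgeR, although 4 had an unadjusted p under 0.05. Their summed level was 0, 0 and 57.5 CPM in WT and 53.6, 96.2 and 436 CPM in IRF8KO replicates 1 to 3. The lymphocyte markers Cd3e, Cd3g, Cd8a, Ms4a1 and Cd2 had 0 counts in all 6 libraries, and the 9 of that list together held 3.94 to 4.76 CPM in IRF8KO and at most 0.413 CPM in WT. Cd4 had 104 counts in IRF8KO and 0 in WT. Of 10 markers of border-associated macrophages, 7 were tested and all 7 were called higher. Their list summed to 608 to 832 CPM in WT and 3698 to 4900 CPM in IRF8KO, with Lyve1 and Cd209f at 0 counts in all 6 libraries. All 10 microglial markers had counts in WT and 9 in IRF8KO, where Sall1 had 0. The list summed to 41888 to 68970 CPM and 32653 to 45929 CPM, with 1 marker called higher and 4 lower. The neuron markers summed to 0.636 to 12.7 CPM in WT and 31.3 to 51.4 CPM in IRF8KO, with 3 of 4 tested called higher. The astrocyte markers summed to 10.03 to 90.1 and 115 to 194 CPM, with 4 of 5 tested called higher. No marker of either list was called lower. The endothelial and pericyte markers summed to 18.3 to 22.3 CPM in WT and 9.95 to 10.9 CPM in IRF8KO. Of their 2 tested markers, Pecam1 was called lower and none higher, with a median log2 fold change of 0.0026. The oligodendrocyte markers summed to 284 to 699 CPM in WT and 483 to 690 CPM in IRF8KO. Of their 6 tested markers, Cnp was called lower and none higher, although the median log2 fold change was 1.13. The part of these markers in the channel results was not tested.

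IRF8KO replicate 2 held 275 CPM of the 8 neutrophil markers and 46.0 CPM of the 8 monocyte markers, where the other IRF8KO libraries held at most 3.84 and 4.32 CPM and the WT libraries at most 0.141 and 1.48 CPM. Without IRF8KO replicate 2, Kcnn4 had a log2 fold change of 2.75 and Kcnk6 one of −1.87, both called (edgeR, adjusted p = 0.0011 and 0.0057), while Kcnk12 at −1.04 and Trpm7 at −1.52 were no longer called (adjusted p = 0.079 and 0.115). Both also lost their calls without IRF8KO replicate 1 and without IRF8KO replicate 3. IRF8KO replicate 2 was the lowest of the IRF8KO libraries for 7 of the 9 channels, all but Kcnj2 and Kcna3.

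Of the 3 TRP channels, Trpm7 was called lower and Trpv2 and Trpm2 were not; the differences between them were not tested. Trpv2 (ENSMUSG00000018507, chromosome 11, 62574486 to 62600515) encodes a calcium-permeable channel used by macrophages in phagocytosis. It had 221, 213 and 420 CPM in WT and 198, 183 and 225 CPM in IRF8KO. WT replicate 3 stood far above the others, and IRF8KO replicate 3 lay above WT replicates 1 and 2. The means were 285 ± 117 and 202 ± 21.2 CPM (SD, n = 3), and Trpv2 was not called (log2 fold change −0.49, SE 0.32; edgeR, adjusted p = 0.308). Without WT replicate 3 it was −0.07. Library size alone gave −0.93 and a call (edgeR, adjusted p = 0.012), which is −0.31 relative to that scaling's median.

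Trpm2 (ENSMUSG00000009292, chromosome 10, 77907722 to 77970563) encodes the channel opened by ADP-ribose. It had 66.2, 71.8 and 102 CPM in WT and 83.4, 51.9 and 89.3 CPM in IRF8KO. Each group spanned most of the other's range. The means were 80.0 ± 19.4 and 74.9 ± 20.1 CPM (SD, n = 3), and Trpm2 was not called (log2 fold change −0.10, SE 0.31; edgeR, adjusted p = 0.854). It turned positive without WT replicate 3 or without IRF8KO replicate 2, at 0.14 and 0.12. Small RNA genes overlap 0.730% of its exons, and the exons of the other 8 channels overlap no other gene in the annotation used. The ratio of Trpm2 to Trpv2 counts ran from 0.244 to 0.337 in WT and from 0.284 to 0.421 in IRF8KO, and overlapped.

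Trpm7 (ENSMUSG00000027365, chromosome 2, 126791565 to 126876230) encodes a cation channel fused to a protein kinase that carries magnesium, zinc and calcium. Its counts were 53, 233 and 44 in WT and 30, 24 and 26 in IRF8KO, or 10.3, 16.5 and 6.05 CPM and 4.80, 2.15 and 2.81 CPM. All 3 IRF8KO libraries lay below 5 CPM and below every WT library, although the gap between WT replicate 3 and IRF8KO replicate 1 was small. The exact 95% counting intervals of those 2 libraries, 4.40 to 8.12 and 3.24 to 6.86 CPM, overlapped. Trpm7 fell from 10.9 ± 5.23 to 3.26 ± 1.38 CPM (SD, n = 3), with a log2 fold change of −1.77 (SE 0.56; edgeR, adjusted p = 0.045). It was called in 9 of 18 alternatives. The call was lost in every fit without 1 library except that without WT replicate 3, with adjusted p from 0.060 to 0.240 where it was lost (edgeR). With the offset for GC content and length it was −0.81 (edgeR, adjusted p = 0.328).

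**Figure D3:**
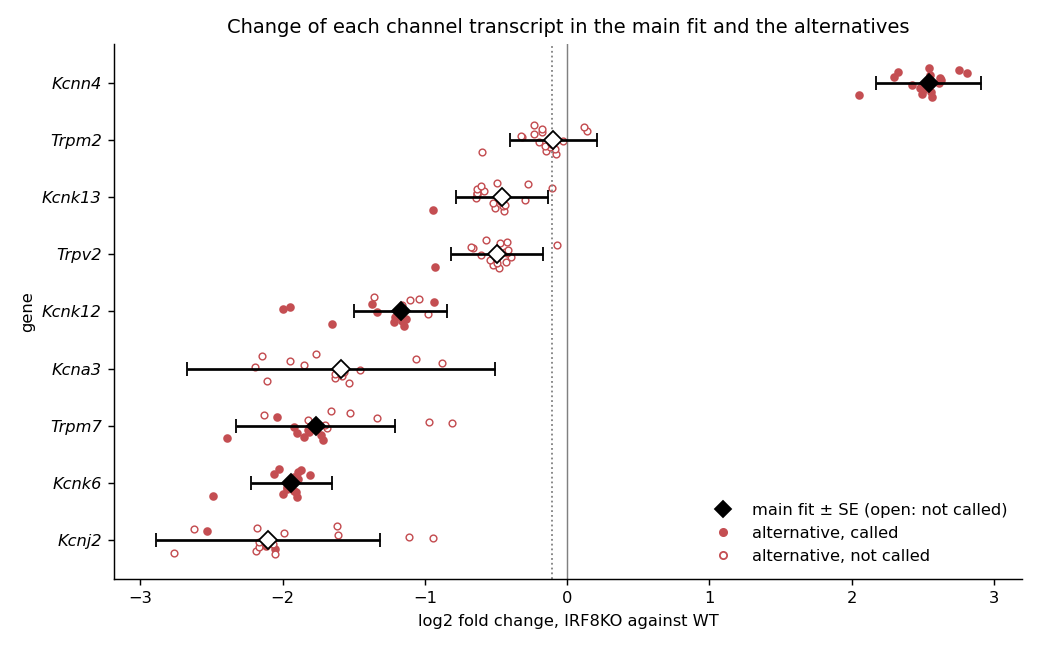
Log2 fold change (horizontal axis) of each channel, IRF8KO against WT: diamonds with SE bars are the edgeR fit to all 6 libraries, small circles the alternative fits, filled where called at an adjusted p under 0.05; the dotted line is the median of all tested genes. Kcnn4 and Kcnk6 are called throughout, whereas Trpm7 and Kcnk12 are called in 9 and 13 of 18 alternatives.

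The values of WT replicate 3 were set beside GC content. Trpm7 and Kcnj2 have the lowest GC content of the 9, 40.1% and 41.2% of the longest transcript. WT replicate 3 had less of both than the mean of WT replicates 1 and 2, by log2 differences of −1.14 and −2.48. The channels with the GC contents of 53.8%, 54.0%, 55.8% and 69.4% (Trpm2, Trpv2, Kcnk13 and Kcnk12) were higher there, by 0.57, 0.95, 0.82 and 0.52. Kcna3, with 60.3% and only 4 counts in that library, was lower by 2.22. Kcnk6 and Kcnn4, at 51.3% and 51.4%, differed by −0.54 and 0.70. Over all 11034 tested genes with a GC content, the same log2 difference had a Spearman correlation of 0.622 with GC content, a description across genes that share the same 3 libraries. Over the 9 channels alone it was 0.35.

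Levels of different genes can be compared only per length, here as CPM per kilobase of exon. Kcnk13 and Trpv2 led in both groups, at 64.7 ± 22.8 and 63.5 ± 26.1 in WT and 47.0 ± 11.4 and 45.0 ± 4.72 in IRF8KO (SD, n = 3), and did not differ beyond their spread. In WT the next were Kcnk6 (32.9 ± 6.94) and Kcnk12 (23.0 ± 6.27), whose ranges overlapped, then Trpm2 (6.42 ± 1.55) and Kcnn4 (2.12 ± 0.763), which did not overlap. Kcnj2, Kcna3 and Trpm7 came last, at 1.74 ± 1.20, 0.993 ± 0.783 and 0.966 ± 0.463, with overlapping ranges. Kcnn4 and Kcnj2 overlapped as well, and in WT replicate 1 Kcnn4 (1.33) lay below both Kcnj2 (2.78) and Kcna3 (1.84). In IRF8KO the third place went to Kcnn4 (12.5 ± 3.72), followed by Kcnk12 (10.2 ± 2.31) and Kcnk6 (8.59 ± 0.992), each overlapping its neighbour, and Trpm2 (6.01 ± 1.61). Kcnj2, Kcna3 and Trpm7 were again last, at 0.407 ± 0.290, 0.305 ± 0.271 and 0.288 ± 0.122. Of the summed level of the 9, Kcnk6 held 17.9 ± 7.02% in WT and 6.67 ± 0.864% in IRF8KO, and Kcnn4 held 1.08 ± 0.287% and 9.45 ± 1.65%. Kcnk13 held 32.4 ± 3.35% and 35.8 ± 3.69%. With the longest transcript as the length, Trpv2 came before Kcnk13 in both groups, and Trpm2 before Kcnk12 and Kcnk6 in IRF8KO. Trpm7 then came before Kcna3 in both groups and before Kcnj2 in IRF8KO. The ranges overlapped in each of these pairs.

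**Figure D4:**
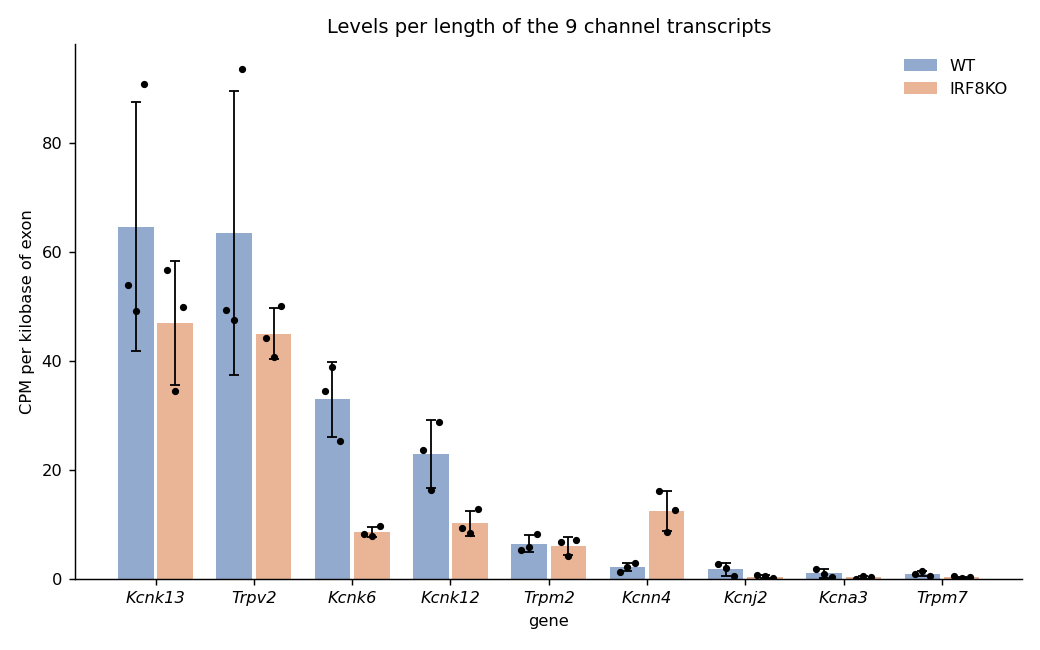
Mean CPM per kilobase of exon of each channel (bars from 0, ordered by the WT mean) with SD (n = 3) and the 3 libraries as points, WT in blue and IRF8KO in orange. Kcnk13 and Trpv2 are highest in both groups, and Kcnn4 moves from 2.12 in WT to 12.5 in IRF8KO.

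Most genes of the wider channel families had few or no counts in these libraries. Of 79 genes in 4 potassium channel lists, 13 passed the filter and 20 had 0 counts in all 6 libraries. These lists include Abcc8 and Abcc9, which encode regulatory subunits and no pore. Outside the 6 potassium channels above, 7 were tested, 1 was called higher and 2 lower. Kcnd1, which encodes the A-type channel Kv4.1, fell from 176 ± 49.9 to 8.19 ± 7.41 CPM (SD, n = 3; log2 fold change −4.45, edgeR adjusted p = 6.7e-04). The IRF8KO libraries had 16.2, 6.89 and 1.51 CPM, and the log2 fold change was −5.35 without IRF8KO replicate 1 and −3.93 without replicate 3, called in both. Kcnma1, the large-conductance calcium-activated channel, fell from 6.72 ± 1.06 to 1.14 ± 0.489 CPM (edgeR, adjusted p = 0.015), and its call was lost without WT replicate 1 or without IRF8KO replicate 3. An antisense gene overlaps 5.98% of Kcnma1 exons, and without strand the reads of both cannot be told apart. Kcnh2, the ERG-type channel, had 0 counts in the WT libraries together and 82 in IRF8KO, at least 27.3-fold higher against a floor of 3 counts over the group, at 3.03 ± 0.413 CPM in IRF8KO. Of 20 auxiliary subunit genes, 4 were tested and 3 rose. Kcnip3, a calcium-binding partner of Kv4 channels that also acts as a transcriptional repressor, went from 18.0 ± 8.03 to 130 ± 9.99 CPM (edgeR, adjusted p = 2.1e-04). Kcnab2 and Dpp6 stayed at or under 6.98 and 3.36 CPM, and lost their calls in 5 and 4 of the 6 fits without 1 library.

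Of 28 TRP channel genes, 7 were tested, none was called higher and 3 were called lower in edgeR. DESeq2 and limma-voom also called 3, the same number had an unadjusted p under 0.05, and without IRF8KO replicate 1 only 1 was called. The median of the 7 log2 fold change was −1.10, beside −0.11 for all genes. Besides Trpm7, these were Trpv4 and Trpm4. Trpv4, a channel opened by warmth and cell swelling, had 36.1, 53.5 and 234 CPM in WT and 0, 0 and 0.757 CPM in IRF8KO (log2 fold change −8.61, edgeR adjusted p = 2.1e-04). Its IRF8KO level rests on 7 counts in replicate 3; the fitted value was −12.89 without that library, where all IRF8KO counts are 0 and it depends on the prior count, and −7.31 without WT replicate 3, called in both. Trpm4, a calcium-activated channel for monovalent cations, fell from 58.6 ± 10.5 to 18.6 ± 8.52 CPM (edgeR, adjusted p = 0.0073), and had an adjusted p of 0.0504 without IRF8KO replicate 1. Mcoln1, a lysosomal channel, and Pkd2, a polycystin, were not called.

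**Figure D5:**
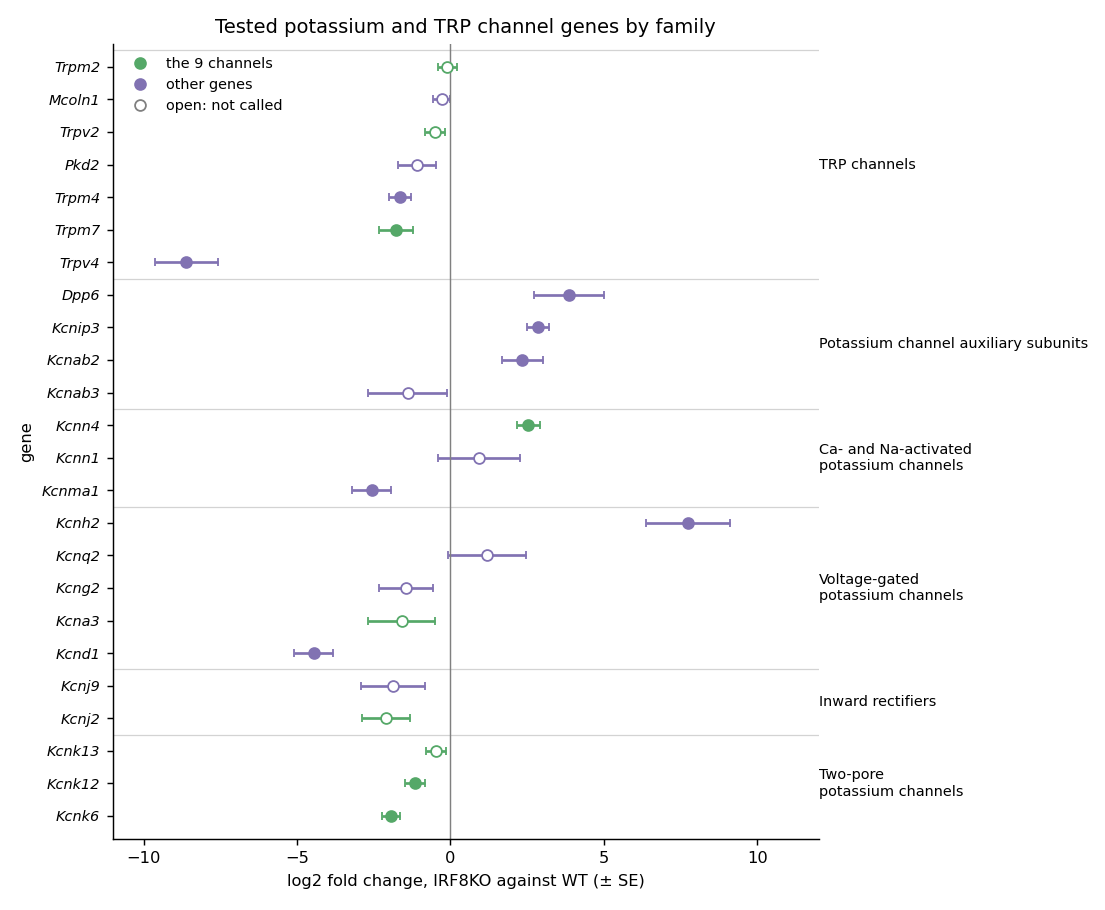
Log2 fold change with SE (horizontal axis) of every potassium and TRP channel gene that was tested, grouped by family, IRF8KO against WT; the 9 channels are green, other genes purple, and open symbols were not called. Kcnd1 and Trpv4 lie furthest to the lower side, and the fitted value of Kcnh2, which had 0 counts in WT, depends on the fit's prior count.

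Genes that work with these channels were read from 3 lists. The potassium-efflux inflammasome list had 9 tested genes, 2 called higher, 1 lower and a median log2 fold change of −0.61. Il1b, the interleukin-1β precursor, rose from 2.24 ± 1.31 to 29.0 ± 14.7 CPM, and Nek7, the kinase that binds NLRP3 on potassium efflux, fell from 29.0 ± 12.9 to 5.17 ± 1.26 CPM (SD, n = 3; edgeR, adjusted p = 9.9e-04 and 0.0030). Ninj1, which ruptures the membrane of dying cells, was the other gene called higher, a call kept in 1 of the 6 fits without 1 library. Nlrp3 itself was not called. In the list of ADP-ribose supply and removal, which bears on the TRPM2 ligand, 11 of 12 genes were tested, 1 rose and 2 fell. Cd38, an enzyme that makes ADP-ribose from NAD, had 0 counts in WT and 8.01, 20.6 and 19.6 CPM in IRF8KO, at least 153-fold higher against the floor of 3 counts over the group. Parp1 and Nudt9 were the 2 that fell, and Nudt9 kept its call in 1 of the 6 fits without 1 library. An antisense gene overlaps 35.7% of Nudt9 exons, where reads of both cannot be told apart without strand. In the list of the sodium pump and potassium transport, 12 of 14 genes were tested, 3 rose and 2 fell. The regulator Fxyd5 rose from 12.5 ± 6.96 to 282 ± 92.7 CPM (SD, n = 3; edgeR, adjusted p = 4.9e-05). The chloride cotransporter genes Slc12a9 and Slc12a2 fell, and Slc12a2 lost its call without IRF8KO replicate 3 (edgeR, adjusted p = 0.0534).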

How the data were processed

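The authors deposited 1 file of raw counts per library, in the layout that STAR writes: 4 summary lines, then for each gene 1 count made regardless of strand and 2 that depend on it. The submitters' processing notes name bcl2fastq, STAR 2.5.2b, Picard 2.17.11, Subread and featureCounts and the build mm10; the annotation release is not given in the sources used here. Libraries were made with SMART-Seq v4 and Nextera XT, per the labels' protocols, which do not mark strand, and the labels name no molecular identifiers; intervals cover counting error only. The summary lines were left out: reads outside genes made up 2.44% to 7.70% and reads on several genes 8.20% to 10.8% of uniquely mapped reads.

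The count made regardless of strand was used. Of 49585 identifiers, 49326 matched GENCODE M21 (GRCm38), which gave symbols, coordinates, lengths and GC content. The test was edgeR 4.0.16 under R 4.3.3 (default filter with minimum count 10, TMM, quasi-likelihood F test, genotype as the only term), with Benjamini-Hochberg adjustment over 11041 genes and calls at 0.05. SE were derived from the F statistic. The script was tested on simulated data. There it called 10.8% of genes changed by 1 log2 unit and 53.2% of those changed by 2 log2 units. A gene that was not called is therefore not shown to be unchanged. The labels describe isolation from each brain but do not tie libraries to animals, so p-values measure the spread between these libraries.

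Alternatives were 3 other scalings, DESeq2 1.42.0, limma-voom (limma 3.58.1), 2 other filters, the 2 strand columns, the replicate number as a block, an offset smoothed on GC content and length, and leaving out each library. The 9 channels, the 12 channel and pathway lists and the 10 marker lists were chosen with earlier results of these data known. Named genes were all 9 channels, every called gene of the channel families, and up to 3 called genes per direction of each pathway list, by smallest p; genes named outside this rule were chosen after their values were seen. A few genes of these lists are not reported here.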

Additional observations from a re-analysis of the deposited data

How the results depend on the processing

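Kcnk6 and Kcnn4 kept their direction and call in all 18 alternative fits, and Kcna3 was called in none of the 14 that tested it. Scaling by library size alone called 652 genes higher and 1914 lower, and 5 of the 9 channels lower, with log2 fold changes of −0.94 for Kcnk13 and −0.93 for Trpv2. Strand column 3 called 2 of the 9 channels, 1 of them lower, with −0.98 for Kcnk12 and −1.69 for Trpm7 (edgeR, adjusted p = 0.0552 and 0.0549). This column held 49.8% to 50.3% of the counts of the 2 strand columns. As the libraries do not mark strand, it is a fit at lower depth and not a measure of 1 strand. DESeq2 and the fit without a filter called Kcnj2, at −2.06 and −2.12. The GC and length offset gave −0.63 for Kcnk13, −1.996 for Kcnk12, −0.94 for Kcnj2 and −0.81 for Trpm7; the cause was not tested.

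Leaving out 1 library in turn gave 910 to 4003 called genes (without IRF8KO replicate 3 and without WT replicate 3), 524 to 2168 higher and 386 to 1835 lower, 2 to 5 of the 9 channels called, 1 to 4 of them lower, and 18 to 52 called genes over the 12 lists. The log2 fold changes ranged from −1.37 to −0.94 for Kcnk12, −2.13 to −1.34 for Trpm7, −2.62 to −1.61 for Kcnj2, −2.15 to −0.88 for Kcna3 and −0.23 to 0.14 for Trpm2. Where a fit left 2 libraries in a group, these were fewer samples.

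The labels do not say that the replicate numbers pair the libraries. The correlations of deviations from the group means over 11041 genes were −0.26, 0.328 and 0.114 for replicates 1, 2 and 3. With 3 libraries per group, these values cannot decide whether libraries were paired. With the replicate block, 2353 genes were called, Kcnj2 gained a call at −2.10 and Trpm7 lost its call at −1.70, or at −0.97 with the GC and length offset and the replicate block together; not every library correlated best with its own number.

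With the longest transcript as the length, the level per kilobase of Kcnn4 was 2.98 in WT and 17.5 in IRF8KO, of Trpm2 11.004 and 10.3, of Trpm7 1.54 and 0.458, and of Trpv2 55.02 in IRF8KO. Kcna3 and Kcnj2 had at most 23 and 154 counts in a library, and neither gave a value where 10 counts were asked of every library.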

Other observations

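Other channels and transporters of the same cells were read from 3 further lists. Of 18 genes for calcium entry and release, 17 were tested, 4 were called higher and 2 lower. P2rx4, the ATP-gated channel of activated microglia, rose from 194 ± 48.5 to 630 ± 102 CPM (SD, n = 3) and Tpcn1, a lysosomal cation channel, from 36.7 ± 1.52 to 97.5 ± 18.4 CPM (edgeR, adjusted p = 0.0029 and 0.0041). Tmem63a, an osmosensitive channel, fell from 612 ± 241 to 212 ± 48.0 CPM (edgeR, adjusted p = 0.0097), a call that was lost without IRF8KO replicate 3 (adjusted p = 0.093). Stim2, a sensor of store-operated calcium entry, was called lower, from 5.87 to 0.807 CPM (edgeR, adjusted p = 0.033), and kept its call in 2 of the 6 fits without 1 library. Stim1, the other sensor, the pore gene Orai1 and P2rx7 were not called.

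Of 20 anion and proton channel genes, 17 were tested, 1 was called higher and 2 lower. Panx1, a pore that releases ATP, rose from 17.1 ± 4.32 to 50.9 ± 2.39 CPM (SD, n = 3; edgeR, adjusted p = 0.0038), a call that was lost with scaling by library size alone (adjusted p = 0.0569). Hvcn1, the voltage-gated proton channel that accompanies the phagocyte oxidase, was not called, with 63.6 ± 13.9 and 67.8 ± 12.2 CPM. Tctn1, on the other strand, overlaps 44.2% of Hvcn1 exons, where reads of both cannot be told apart without strand. Of 14 genes for magnesium transport, 13 were tested and 1 was called, Cnnm1, with 1 count in WT and 35 in IRF8KO (scaled ratio 34.9, exact 95% counting interval 5.87 to 1417). It kept its call in 1 of the 5 fits without 1 library that tested it. The medians of the 3 lists were 0.28, 0.09 and −0.02, beside −0.11 for all tested genes.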
